A study of Mus musculus with 6 samples.

Results

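The Steap family and the genes that lie beside Steap1 and Steap2 on mouse chromosome 5 were followed in embryonic cortex in which the Hippo kinases Lats1 and Lats2 were targeted for deletion. The set holds 6 genes of the 22180 with a row of their own on the array: Steap1, Steap2, Steap3, Steap4, Cldn12 and Gtpbp10. The Steap genes were taken by family name, while Cldn12 and Gtpbp10 were selected on their array values, because they rose together with Steap1 and Steap2 in the same comparison that is described here. The changes of these 4 genes are therefore given as a description and not as a test, and the number of calls among the members is printed once, beside that over all genes, with nothing read from it. Each of the 6 genes had exactly 1 row, no row with several gene symbols named any of them, and all 6 passed the filter on dim genes.

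The mutant embryos, called DKO here, carried Lats1F/F;Lats2F/F;Nestin-Cre, that is floxed alleles of both kinases and a Cre transgene driven by the Nestin promoter, which recombines in neural progenitors and in the cells they give rise to. The control embryos carry no further genotype in the labels. Total RNA came from dissected, untreated cortex at stage E12.5, with 3 DKO and 3 control embryos, a separate embryo for each sample and 1 Affymetrix whole-transcript array for each embryo. Values are log2 intensities after RMA (robust multi-array average), so a difference of 1 is a doubling, and the number of arrays limits the precision.

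Steap proteins are membrane proteins with a haem-binding domain of several transmembrane helices. Steap2, Steap3 and Steap4 also carry a cytoplasmic NADPH-dependent oxidoreductase domain and reduce ferric iron and cupric copper, so that transporters can move the reduced metals, while Steap1 lacks that domain. Claudins such as Cldn12 are membrane proteins of tight junctions, and Gtpbp10 is a GTPase of the Obg family that takes part in assembling the large subunit of the mitochondrial ribosome. Lats1 and Lats2 phosphorylate and restrain YAP and TAZ, coactivators that reach DNA mainly through the TEAD proteins.

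The promoter windows of the 4 genes that were higher in DKO are shown because these genes moved together and lie near each other in gene order. Each runs from 250 bases before to 50 bases after a RefSeq start site on GRCm38.p6, and all 4 are on the minus strand. The motifs below were searched on both strands: the TEAD motif GGAATG, which reads CATTCC on the other strand, the AP-1 motif TGANTCA and the cyclic AMP response element TGACGTCA, which was added after the windows had been read. Capitals mark a match. The window shown for a gene is the one with most matches, or the first listed where none has any.
Steap1, chr5:5749268-5749567: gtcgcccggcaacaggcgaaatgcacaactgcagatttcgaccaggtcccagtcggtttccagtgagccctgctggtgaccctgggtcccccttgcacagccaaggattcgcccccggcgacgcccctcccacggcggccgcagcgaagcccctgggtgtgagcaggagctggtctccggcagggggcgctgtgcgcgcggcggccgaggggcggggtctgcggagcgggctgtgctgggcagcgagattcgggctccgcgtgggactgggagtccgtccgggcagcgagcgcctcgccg
Steap2, chr5:5694277-5694576: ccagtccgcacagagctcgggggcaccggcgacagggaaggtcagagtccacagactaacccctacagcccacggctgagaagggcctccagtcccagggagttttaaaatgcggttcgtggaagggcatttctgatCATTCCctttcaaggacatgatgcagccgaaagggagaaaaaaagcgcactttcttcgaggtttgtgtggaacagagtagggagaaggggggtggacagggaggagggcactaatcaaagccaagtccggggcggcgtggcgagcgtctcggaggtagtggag
Cldn12, chr5:5514927-5515226: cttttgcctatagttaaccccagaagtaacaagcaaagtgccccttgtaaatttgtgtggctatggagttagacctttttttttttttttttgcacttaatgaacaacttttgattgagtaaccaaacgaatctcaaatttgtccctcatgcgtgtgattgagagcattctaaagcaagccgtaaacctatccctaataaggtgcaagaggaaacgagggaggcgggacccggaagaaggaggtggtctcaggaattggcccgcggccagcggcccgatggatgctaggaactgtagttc
Gtpbp10, chr5:5559492-5559791: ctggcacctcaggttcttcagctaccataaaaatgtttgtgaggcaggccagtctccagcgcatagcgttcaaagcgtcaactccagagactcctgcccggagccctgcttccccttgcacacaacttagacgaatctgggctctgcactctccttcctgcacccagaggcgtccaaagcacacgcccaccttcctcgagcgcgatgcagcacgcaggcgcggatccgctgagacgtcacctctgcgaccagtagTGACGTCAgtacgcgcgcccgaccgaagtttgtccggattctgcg

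The 6 genes had 13 promoter windows in the RefSeq table, and the TEAD motif was found in 1 of them, the Steap2 window above. The match began 113 bases before the start site. Windows of the same gene can overlap, as the 3 of Cldn12 do, so the 13 are not separate promoters. Over all 32851 windows of the table, 14.7% held that motif. Counted by gene, 1 of the 6 members had it, and 16.6% of all genes did. The AP-1 motif was found in 0 of the 13 windows, against 7.81% of all windows and 8.97% of all genes. The Gtpbp10 window held the cyclic AMP response element, found in 1.79% of all windows, just after the start site. That motif was added after these windows had been read, so nothing is read from its match or its share. The Steap1 window held none of the motifs and was rich in G and C, at 72.3%. A match here is a string of letters and not a shown binding site, and the windows leave out introns and distant enhancers.

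The labels were checked on the targeted genes. Lats1 read 7.82, 7.82 and 7.74 on the DKO arrays, against 8.81, 8.34 and 8.98 on the control arrays, and fell by 0.91 ± 0.14 (SE) on the log2 scale with a limma adjusted p of 0.0189. Lats2 read 7.36, 7.18 and 7.27 on the DKO arrays, against 7.16, 6.84 and 7.11 on the control arrays, and did not pass the test, at 0.24 ± 0.10 (SE) on the log2 scale with an adjusted p of 0.285. The sources used here give neither the deleted exons nor the probe positions, so this row may lie outside the deleted part and checks nothing if it does. Lats1 was no longer called when control 1, control 3, DKO 1 or DKO 3 was left out, with adjusted p up to 0.0875. The cortex markers with a row, among them Emx1, Lhx2 and Tbr1, had group means from 7.39 to 10.73 in DKO and from 7.69 to 10.90 in control cortex. Over all genes 228 of 16724 tested were called higher and 60 lower in DKO by limma at an adjusted p under the threshold of 0.05.

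Steap1 had the largest change of the 6 genes. Its log2 values were 7.86, 7.19 and 7.67 on DKO arrays 1 to 3, against 5.22, 5.26 and 5.28 on control arrays 1 to 3. All DKO arrays lay far above all control arrays, and the lowest DKO value exceeded the highest control value by 1.91. The difference was 2.32 ± 0.15 (SE) on the log2 scale, or 5.0-fold, and stood at rank 3 among the 16724 log2 fold changes. The choice of the members used this contrast, so nothing is read from that rank. The control mean of 5.25 ± 0.03 (SD, n = 3) stood close to the limit for dim genes, a log2 value of 5.02, and no detection call separates it from background, which leaves the size of the change uncertain. The control arrays agreed within 0.05, while the DKO arrays spread over 0.67, with DKO 2 lowest. In RefSeq a predicted gene, Gm46900, overlaps Steap1, and signal from the 2 genes could not be separated here.

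Steap2, the neighbour of Steap1 and a metalloreductase, also had higher values in DKO. It read 7.17, 6.96 and 6.99 on the DKO arrays, against 6.06, 5.91 and 6.04 on the control arrays. The groups did not overlap, and the gap between them was 0.90. The difference was 1.03 ± 0.08 (SE) on the log2 scale, or 2.05-fold, which was less than that of Steap1. A long noncoding RNA, Gm40262, overlaps Steap2 in RefSeq.

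Steap3 and Steap4 entered by family name. Steap3, the ferrireductase of endosomes in developing red blood cells, lies on chromosome 1. It read 5.23, 5.37 and 5.47 on the DKO arrays, against 5.03, 5.36 and 5.29 on the control arrays. The groups overlapped, and limma gave 0.13 ± 0.10 (SE) on the log2 scale with an adjusted p of 0.592. The 95% interval of the difference ran from -0.10 to 0.37. Steap4, a metalloreductase induced by inflammatory signals in fat tissue, lies on chromosome 5 beyond Steap1. Its values were 5.09, 5.24 and 4.99 on the DKO arrays, against 5.01, 5.18 and 5.20 on the control arrays. These overlapped as well, at -0.02 ± 0.09 (SE) on the log2 scale, with a limma adjusted p of 0.927 and an interval from -0.22 to 0.17. Steap3 and Steap4 were dim in both groups, near the limit of 5.02, with no detection call, so these intervals cover the spread between arrays and set no bound on a change in transcript level.

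Cldn12 had the second largest change of the set. It read 9.57, 9.08 and 9.32 on the DKO arrays, against 7.52, 7.56 and 7.65 on the control arrays. The groups were separated by 1.42, and DKO 2 was again the lowest of the DKO arrays, as it was for Steap1 and Steap2. The difference was 1.75 ± 0.12 (SE), or 3.36-fold, and unlike Steap1 this gene was well above the limit for dim genes in both groups.

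Gtpbp10 had the smallest difference of the 4 and the tightest DKO values. It read 9.02, 9.04 and 9.06 on the DKO arrays, against 8.60, 8.65 and 8.58 on the control arrays. The DKO arrays agreed within 0.04 and the control arrays within 0.08, and the groups did not overlap. The difference was 0.43 ± 0.06 (SE), or 1.35-fold. Among all genes tested, 1.76% had a log2 fold change at least this large. Gtpbp10 was selected for its rise in this contrast, so nothing is read from that share.

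**Figure D1:**
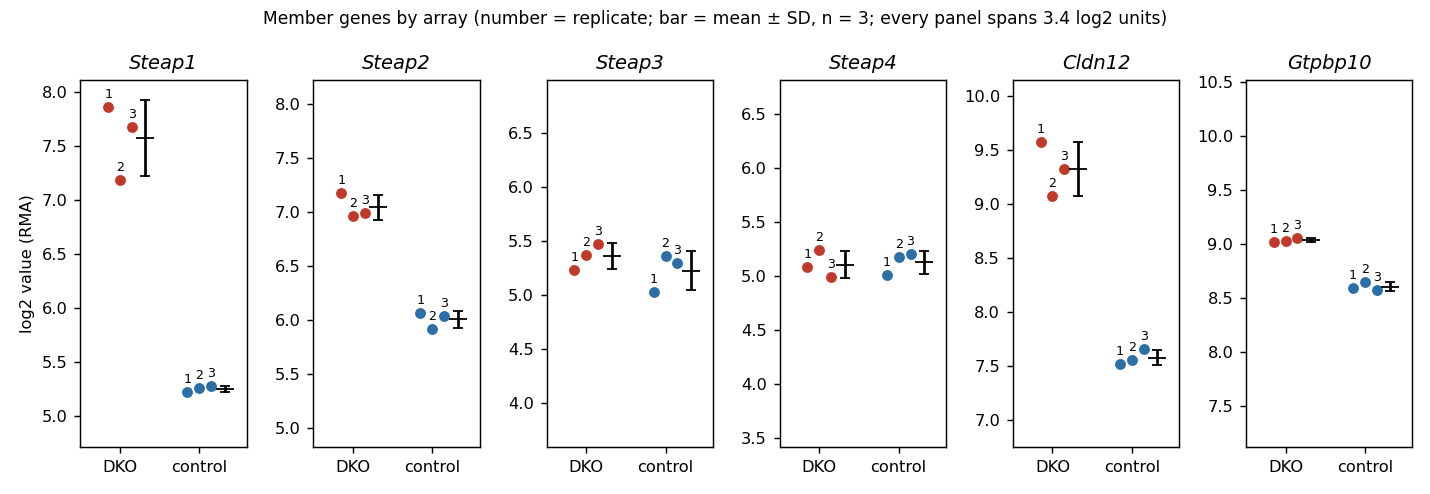
Log2 RMA values of the 6 genes on each array, DKO at the left and control at the right of each panel, with the replicate number above each point and the mean ± SD (n = 3) as a bar. Steap1, Steap2, Cldn12 and Gtpbp10 have all 3 DKO points above all 3 control points, and the Steap3 and Steap4 points overlap between groups.

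Of the 6 genes, 4 were called higher in DKO and 2 were not called. Over all genes 1.72% were called in either direction and 1.36% were called higher, and 8.22% had all DKO arrays above all control arrays, as 4 of the 6 had. Since the choice of the members used this contrast, nothing is read from these counts. Leaving out each array in turn gave log2 fold changes from 2.18 to 2.51 for Steap1, from 0.97 to 1.07 for Steap2, from 1.62 to 1.87 for Cldn12 and from 0.41 to 0.45 for Gtpbp10. Gtpbp10 was no longer called without control 1, at a limma adjusted p of 0.0552, which left 3 members called.

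The order of the genes on chromosome 5 was taken from RefSeq. The stretch from Cldn12 to Steap1 holds 6 protein-coding genes in the order Cldn12, Gtpbp10, Gm8773, Cfap69, Steap2 and Steap1, all of which had a row. Besides the 4 members described above, Gm8773 and Cfap69 lie inside it. Gm8773, a gene with a provisional name only, read 5.53, 5.72 and 5.86 on the DKO arrays, against 4.66, 4.70 and 4.30 on the control arrays. Its log2 fold change was 1.15 ± 0.12 (SE) with a limma adjusted p of 0.00264. Its control mean of 4.55 lay below the limit for dim genes, so it passed the filter only through the DKO arrays and had to differ. Cfap69, a protein of cilia and flagella, read 5.70, 5.53 and 5.28 on the DKO arrays, against 5.06, 5.32 and 5.24 on the control arrays. The Cfap69 groups overlapped, and its log2 fold change of 0.30 ± 0.11 (SE) did not pass (adjusted p = 0.259). Of the genes selected on their rise Gtpbp10 had the smallest value, at 0.43, and of the 2 genes of the stretch that are not members, Gm8773 stood at 1.15 and Cfap69 at 0.30.

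Both flanks of the stretch were examined over the 12 nearest protein-coding genes with a row on each side, Steap4 among them. Of these 24 genes, 17 passed the filter, and limma called 0 of them in either direction, while 5 had an unadjusted p under the same threshold. Over all genes 1.36% were called higher and 0.359% lower, and 15.6% had such an unadjusted p. Their log2 fold changes ran from -0.12 to 0.28 with a median of 0.05, beside a median of -0.03 over all genes. Inside the stretch the values ran from 0.30 to 2.32 with a median of 1.09. Its ends were set by genes chosen for their rise, and it holds the 4 members that were higher in DKO. Gm8773 passed the filter only through the DKO arrays. The contrast with the flanks was shaped by that choice, so nothing is read from it. On the Cldn12 side the nearest tested genes were Cdk14, a cyclin-dependent kinase, at 0.22 ± 0.06 (SE, limma adjusted p 0.148), and Fzd1, a Wnt receptor, at -0.12 ± 0.07 (SE, limma adjusted p 0.492). On the Steap1 side they were Steap4, given above, and Sri, the calcium-binding protein sorcin, at 0.28 ± 0.08 (SE, limma adjusted p 0.167). Of the 17 flanking genes tested, 4 had all DKO arrays above all control arrays, and 8.22% of all genes did. In the stretch 5 genes are on the minus strand and Gm8773 is on the plus strand, while the flanks hold 11 genes on the minus strand and 12 on the plus strand, with 1 not listed.

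**Figure D2:**
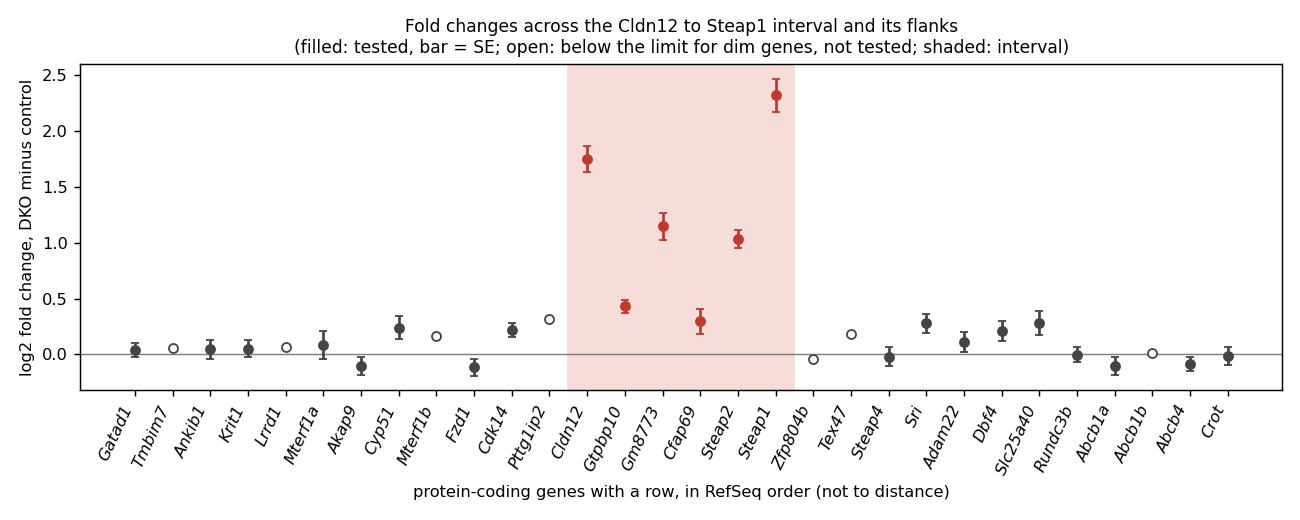
Log2 fold change, DKO minus control, of the 30 protein-coding genes with a row, in RefSeq order with equal spacing and not to distance. Bars are SE, open points were below the limit for dim genes and not tested, and the shaded stretch runs from Cldn12 to Steap1. The shaded points reach 2.32, while the tested genes on either side stay between -0.12 and 0.28. The open point next to Cldn12, Pttg1ip2, stands at 0.31. The ends of the shaded stretch were set by genes chosen for their rise, so nothing is read from its contrast with the flanks.

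The profile of each array was used to find the genes most like Steap1 and Cldn12. Likeness was the root mean square difference over the 6 arrays after each gene was centred on its control mean, so it reflects mainly the size of the DKO difference. The 5 tested genes nearest to Steap1 were Lrp2 at a root mean square difference of 0.20, Tpm1 at 0.22, Ccn1 at 0.32, Gadd45b at 0.33 and Cldn12 at 0.41. Lrp2 is an endocytic receptor, Tpm1 a tropomyosin and Ccn1 a matricellular protein. The 5 nearest to Cldn12 were Large2, a glycosyltransferase, at 0.11, Ccn1 at 0.14, Ccn2, a relative of Ccn1, at 0.16, Ajuba, a LIM-domain protein, at 0.17 and Ptpn14, a phosphatase, at 0.18. Steap2 stood at place 43 for Steap1 and at place 39 for Cldn12. Of the genes nearest to Steap1, Cldn12 was the one from the same stretch of chromosome 5. It was selected for rising with Steap1 on these same arrays, so its place restates that choice and nothing is read from it. In DKO 2, where Steap1 stood 1.93 above its control mean, Lrp2 stood at 2.32 and Ccn1 at 1.73.

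**Figure D3:**
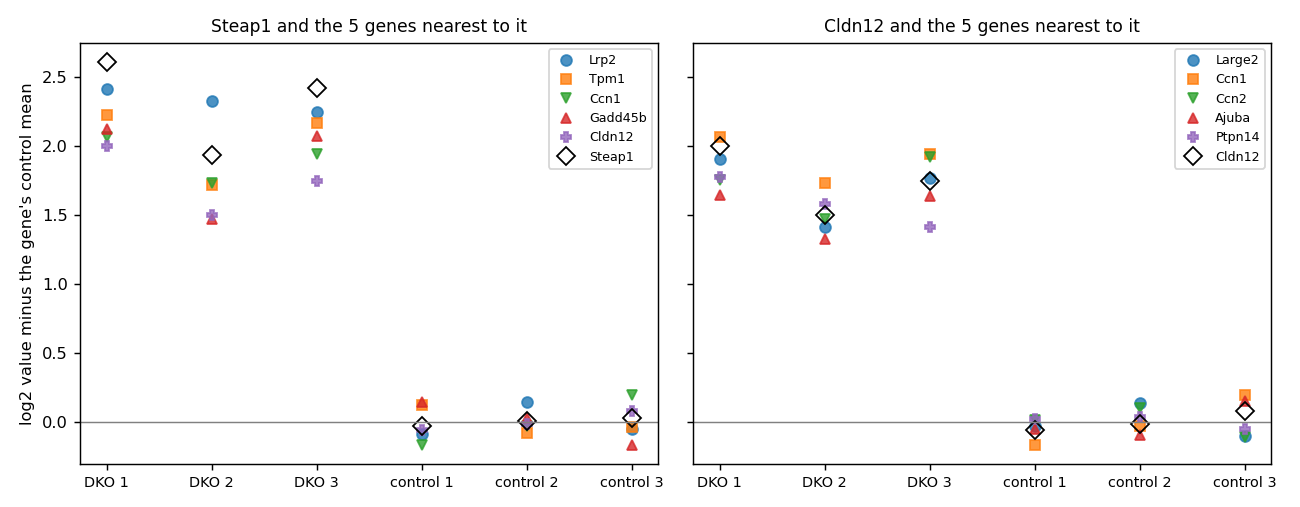
Log2 values minus each gene's control mean on the 6 arrays for Steap1 (left panel) and Cldn12 (right panel), drawn as open diamonds, with the 5 genes nearest to each. In the Steap1 panel DKO 2 is the lowest DKO array for Steap1 and Cldn12, while Lrp2 stands at 2.32 there.

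Genes with roles related to those of the members were read from 5 lists. The other reductases, among them Cybrd1, the duodenal ferric reductase, were not called: of 10 tested, 0 rose and 0 fell by limma, with 2 at an unadjusted p under the same threshold, which 15.6% of all genes had. Their median log2 fold change was 0.02. Frrs1l, a brain protein related to ferric reductases, had the smallest p of the list, at -0.32 ± 0.10 (SE) on the log2 scale with a limma adjusted p of 0.178. It was followed by Cyb5r3, a cytochrome b5 reductase, at -0.17 ± 0.07 (SE, limma adjusted p 0.304), and Cyb561d2, of the cytochrome b561 family, at -0.11 ± 0.09 (SE, limma adjusted p 0.625). Cybrd1 itself had 5.63 ± 0.16 in DKO and 5.54 ± 0.01 in control cortex (SD, n = 3 each).

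Among 30 iron handling genes 1 rose, 0 fell and 29 did not pass, with a median of -0.03. Over all genes 1.36% were called higher and 0.359% lower. Of the 30, 3 had an unadjusted limma p under the threshold, against 15.6% of all genes. The gene that rose was Bmp6, a secreted ligand that induces the iron hormone hepcidin in liver and does not itself carry iron. Bmp6 read 6.54, 6.04 and 6.27 on the DKO arrays, against 5.59, 5.74 and 5.63 on the control arrays. Its log2 fold change was 0.63 ± 0.12 (SE) with a limma adjusted p of 0.0391, and among the fits with 1 array removed it passed only without DKO 2, the other 5 giving adjusted p up to 0.147. It also missed the threshold with no filter on dim genes, at a limma adjusted p of 0.0507. The transferrin receptor Tfrc had a log2 fold change of -0.0029 ± 0.10 (SE, limma adjusted p 0.992), the iron transporter Slc11a2 of 0.01 ± 0.10 (SE, limma adjusted p 0.982), and the ferritin heavy chain Fth1 of -0.14 ± 0.08 (SE, limma adjusted p 0.481). Tfrc brings transferrin-bound iron into endosomes, and Slc11a2 moves it out of them once a Steap protein has reduced it.

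Over all genes 1.72% were called by limma in either direction and 15.6% had an unadjusted p under the threshold. Of 16 copper handling genes 0 were called and 0 had such an unadjusted p, with a median of 0.03. The smallest p were those of Atp7b, a copper-exporting ATPase, at 0.15 ± 0.08 (SE, limma adjusted p 0.417), Atox1, a copper chaperone, at 0.12 ± 0.07 (SE, limma adjusted p 0.50), and Slc31a2, a relative of the importer Slc31a1, at -0.08 ± 0.06 (SE, limma adjusted p 0.557). The copper importer Slc31a1 had 9.19 ± 0.07 in DKO and 9.11 ± 0.04 in control cortex (SD, n = 3 each). The 34 genes listed for mitochondrial ribosome assembly and GTPases reach beyond the large-subunit assembly that Gtpbp10 takes part in, as Yars2 does. Of these 34 genes, 0 were called by limma and 1 had an unadjusted p under the threshold. Their log2 fold changes had a median of 0.01 and a range from -0.14 to 0.16. Yars2, the mitochondrial tyrosyl-tRNA synthetase, had the largest of these log2 fold changes at 0.16 ± 0.07 (SE, limma adjusted p 0.295), followed in order of p by Tfb1m, a methyltransferase of mitochondrial ribosomal RNA, at 0.15 ± 0.07 (SE, limma adjusted p 0.381), and Noa1, a mitochondrial GTPase, at -0.13 ± 0.07 (SE, limma adjusted p 0.408).

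Among 26 other tight junction genes 1 rose, 0 fell and 25 did not pass, with a median of -0.02. Over all genes 1.36% were called higher and 0.359% lower. Of the 26, 6 had an unadjusted limma p under the threshold, against 15.6% of all genes. With no overlap between the groups 4 were higher and 3 lower, against 8.22% and 13.4% of all genes. Tjp1, the scaffold ZO-1 that anchors claudins to actin, read 8.99, 8.70 and 8.88 on the DKO arrays, against 8.41, 8.29 and 8.42 on the control arrays. Its log2 fold change was 0.48 ± 0.09 (SE) with a limma adjusted p of 0.0334. With 1 array removed the call stood only without DKO 2, and the adjusted p of the other 5 fits reached 0.111. With a trended variance 3 genes of the list rose, Tjp1, Jam2 and Cldn9. Of the claudins, Cldn9 had a log2 fold change of 0.68 ± 0.15 (SE, limma adjusted p 0.0772), and Cldn5, the claudin of blood vessels, of -0.34 ± 0.11 (SE, limma adjusted p 0.178).

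**Figure D4:**
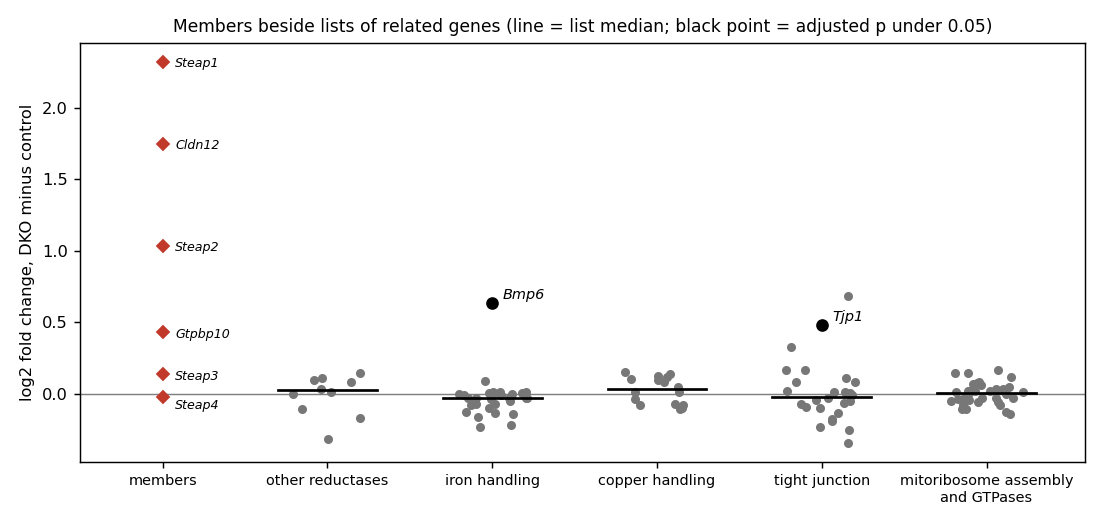
Log2 fold change, DKO minus control, of the 6 members (diamonds) and of the tested genes of 5 lists (points), with each list's median as a line and genes past the threshold in black. Steap1, Cldn12 and Steap2 stand above every listed gene, of which Cldn9 has the highest value at 0.68. Since the choice of the members used this contrast, nothing is read from that standing.

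Markers of other cell types were read beside these changes, since fewer cells of a type and less RNA per cell cannot be told apart in dissected tissue. Hem and choroid plexus markers were higher in DKO for 8 of 9 tested, with a median of 0.38. Of these Ttr and Lmx1a passed the test, and 1.36% of all genes were called higher. An unadjusted limma p under the threshold was found for 6 of the 9, against 15.6% of all genes. All DKO arrays lay above all control arrays for 6, against 8.22% of all genes. The summed level of the hem and choroid plexus markers ran from 9.73 to 10.90 in DKO and from 9.02 to 9.35 in control cortex. It is the log2 of the summed linear values of the 10 with a row. RMA gives no zeros, and the dimmest of the 10 averaged 4.41, below the limit for dim genes. This summed level was highest in DKO 2, the array in which Steap1, Steap2 and Cldn12 were lowest among the DKO arrays. For Steap2 the margin was small, at 6.96 against 6.99 in DKO 3. A sum of linear values weighs the bright markers most, and the single markers did not share its order. Ttr read 8.84, 10.25 and 8.33 on DKO arrays 1 to 3, and Otx2 read 6.68, 7.68 and 6.06. Wnt2b and Wnt3a were also highest in DKO 2, but Lmx1a, Wnt5a, Rspo2 and Folr1 were highest in DKO 1 and Kl in DKO 3. Among the DKO arrays the cortex and surface epithelium sums were also highest in DKO 2, at 12.69 and 8.49. The meningeal, endothelial, erythroid and microglial sums were lowest in DKO 2, at 9.88, 10.29, 12.15 and 8.95. The part of any of these cell types in the changes was not tested. Of the markers of endothelium (8 tested, median -0.27), meninges (9, -0.14), erythroid cells (4, -0.14), microglia (4, -0.09) and surface epithelium (5, -0.07), limma called 0, with 3 at an unadjusted p under the threshold. Of the 9 cortex markers 0 were called and 7 had such a p, which 15.6% of all genes had. Their median was -0.18, 7 had lower means in DKO, and 6 were lower with no overlap between the groups, as were 13.4% of all genes. The summed meningeal level ran from 9.88 to 11.06 in DKO and from 10.47 to 10.76 in control cortex. The summed endothelial level ran from 10.29 to 10.89 in DKO and from 10.87 to 11.06 in control cortex.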

How the data were processed

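The authors deposited log2 values made by RMA, per the submitters' processing notes; its version and the probe build are not given in the sources used here. It equalises array distributions, so a change of total RNA per cell would not be seen. Array medians lay between 5.94 and 5.97. Of 41345 rows, 23521 had exactly 1 gene symbol in the platform annotation, covering 22180 genes, and the row with the highest mean was kept for each. Genes with a mean below the 25th percentile of these rows (5.02) were left out, which left 16724. DKO was compared with control by limma 3.58.1 in R 4.3.3 (lmFit, eBayes, two-sided, Benjamini-Hochberg). The median residual SD was 0.10. Scripts were tested on simulated data. The genes, lists and tests were chosen with earlier results of these data known. Named genes were the members, Lats1, Lats2, the neighbours by RefSeq order, the called genes of each pathway list or, in lists with none, the 3 smallest p, and the 5 nearest profiles. Marker genes, Jam2, Cldn9, Cybrd1, Tfrc, Slc11a2, Fth1, Slc31a1 and Cldn5 were named after their values were seen. Gene order, strands and promoters came from RefSeq (GRCm38.p6), used for names, order and sequence only.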

Additional observations from a re-analysis of the deposited data

How the results depend on the processing

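The log2 fold changes of Steap1, Steap2, Steap3, Cldn12 and Gtpbp10 were positive in each fit run, while that of Steap4, near 0, ran from -0.09 to 0.03 when 1 array was left out. Leaving out 1 array gave 121 to 260 genes higher and 11 to 54 lower in DKO, against 228 and 60 with all arrays; the counts higher were 131 without DKO 1, 130 without DKO 3, 137 without control 1, 140 without control 2 and 121 without control 3. The number lower was 134 with the filter at the median, 162 with a trended variance, 123 with array weights and 24 with the replicate block. The block left 176 genes higher, and Bmp6 was not called there (adjusted p 0.0980) or with no filter on dim genes (0.0507). The labels do not say whether DKO and control arrays with the same replicate number belong together. Same-numbered arrays correlated at -0.10, 0.21 and 0.15 in their deviations from group means. DKO and control arrays with different numbers correlated from -0.32 to 0.24, so these values do not settle it. Steap3 and Steap4 had no value with the filter at the median. No detection call was at hand, so signal over background limits what can be said of Steap3, Steap4, Gm8773 and the control level of Steap1.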
